A study of Mus musculus with 35 samples.

Results

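The comparison described here is the effect of a completed reproductive cycle on basal CD49f-low cells of the mouse mammary gland. Its members are the samples that the titles place in the basal sort gate with low CD24, no Sca1 and low CD49f, which are 6 of the 35 samples of the series, and all 19937 genes with a usable probe set were tested in them. The parous group is 3 pools from mice that were mated at the age of 42 days and went through pregnancy, with 21 days set aside for lactation and a further 40 days for involution, in which the gland regresses once suckling ends. The nulliparous group is 3 pools from virgin mice of matched age, and no strain is given. Every pool holds cells of the 4th mammary glands of 5 mice, so each value is an average over 5 animals. RNA of 10000 sorted cells per pool was amplified and run on 1 single-colour Affymetrix array.

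The mammary epithelium is a bilayer in which luminal cells line the duct and basal cells lie beneath them on the basement membrane. Most basal cells are myoepithelial: they carry Krt5 and Krt14 filaments and a smooth muscle contractile apparatus, and they contract in response to oxytocin to eject milk. Basal cells also secrete growth factors and their inhibitors, and the gate contains cells with regenerative capacity, which have been found mainly where CD49f (integrin alpha 6, encoded by Itga6) is high.

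The sorted cells carried the markers of their label. Krt5 lay at 11.28 to 11.71 log2 units in the 6 samples, against 6.11 to 8.04 in luminal Sca1-negative samples, and Acta2, smooth muscle actin, at 11.54 to 11.73 against 7.48 to 8.41. Krt14 and Myh11, smooth muscle myosin, were likewise above every luminal sample of either kind. Stromal samples were lower too, but lay closer for Acta2 (10.02 to 10.69) and Myh11 (10.18 to 10.69) than for Krt5 (5.65 to 7.88) and Krt14 (5.25 to 7.73). The luminal keratin Krt8 was also measured at 11.16 to 11.33, against 12.36 to 12.65 in luminal samples. Replicates of a group correlated across genes at a Pearson's r of 0.977 to 0.988 over 6 pairs, and the number of arrays limits the precision. Nulliparous pool 1 deviated most from its group, with a residual SD over genes of 0.235 log2 units against 0.169 to 0.205 in the other 5 samples.

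In parous basal CD49f-low cells, 3 casein genes, the haptoglobin gene Hp, the synaptic scaffold gene Frmpd4, the adhesion gene Nrcam and the muscle junction gene Pgm5 were higher. Several genes for proteins that bind or release insulin-like growth factors (IGFs), for basement membrane and elastic fibre components, for the keratins Krt15 and Krt23 and for the secreted inhibitor Sostdc1 were lower. The genes that define basal identity and the contractile apparatus mostly did not pass the test. A gene was called at a Benjamini-Hochberg adjusted p under 0.05 over all genes, from 1 limma fit of all 35 samples, and n is 3 pools per group throughout. Calls were made for 0.968% of genes, with 57 rises (0.286%) and 136 falls (0.682%), so that 70.5% of calls were falls. The median rise was 0.77 and the median fall -0.94 on the log2 scale, against a median of 1e-04 over all genes. In all 193 called genes the groups did not overlap, so separate groups, where stated for a called gene, add nothing to its call.

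How many genes were called depended on single samples. The 57 rises came down to 33, 29 and 34 without parous pool 1, 2 or 3 and to 37 and 31 without nulliparous pool 1 or 2, while 62 were called without nulliparous pool 3. The 136 falls came down to 73 and 72 without parous pool 2 or 3 and to 58 without nulliparous pool 2. In both directions together there were 89 calls without nulliparous pool 2, 102 without parous pool 2 and 106 without parous pool 3. A set of 59 genes, 17 rises and 42 falls, was called whichever of the 6 samples was left out. A fit of the 6 samples alone, with fewer residual degrees of freedom, kept 28 of 54 called genes followed under every alternative, and 52 of all 193. Among the 15 largest rises it lost Adamts5, Skint7, Cd109 and Thsd7a (adjusted p 0.0528 to 0.0813), and among the 15 largest falls Ccl11, Them5, Lum, Slc6a15, Mad2l1 and Serpinb11 (0.0528 to 0.202). In bulk RNA, fewer cells of a type and less RNA per cell cannot be told apart, and this holds for all results that follow.

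**Figure D1:**
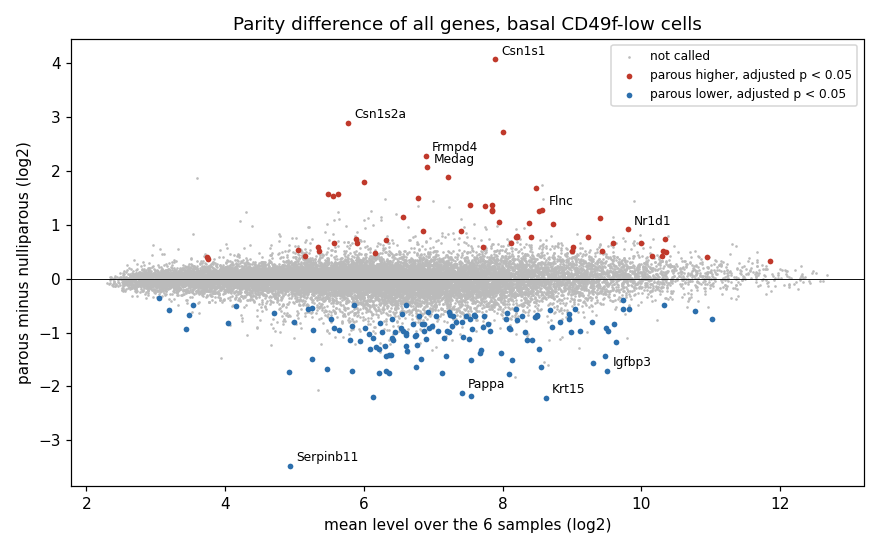
Each point is 1 gene, with its mean level over the 6 basal CD49f-low samples (log2) on the horizontal axis and the parous minus nulliparous difference (log2) on the vertical axis. The 57 called rises are red and the 136 called falls blue; Csn1s1 has the largest called rise, 4.07, and Serpinb11 the largest called fall, -3.47.

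The largest rises were in caseins, the main proteins of milk. Csn1s1, which encodes alpha-S1-casein, was measured at 9.82, 9.98 and 9.99 in parous pools 1 to 3 and at 5.32, 7.31 and 4.95 in nulliparous pools. The parous pools were close together and all above the nulliparous pools, among which pool 2 was about 2 log2 units higher than the others. The difference was 4.07 ± 0.85 (SE), 16.8-fold (adjusted p = 0.0114). Csn2, beta-casein, stood at 9.68, 9.30 and 9.13 in parous and 6.13, 6.98 and 6.81 in nulliparous pools, a rise of 2.73 ± 0.68 (adjusted p = 0.0463). Csn1s2a, an alpha-S2-like casein, was at 7.45, 7.44 and 6.76 against 4.33, 4.17 and 4.46. The parous SD of Csn1s2a was 0.40, against 0.09 for Csn1s1 and 0.28 for Csn2. Its nulliparous values lay below the column medians of the 6 samples (5.81 to 5.88). The rise of Csn1s2a was 2.89 ± 0.40 (adjusted p = 1.2e-04), a call that held without any single sample. By contrast, Csn2 missed the threshold whichever sample was left out (adjusted p 0.0836 to 0.166), and Csn1s1 missed it without parous pool 2 or 3 or nulliparous pool 1 or 3 (0.0517 to 0.0663).

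The 3 caseins lie close to each other on chromosome 5, and casein transcription is known to be switched on by prolactin through STAT5, which binds the motif TTCNNNGAA. The 250 bases upstream of each gene's start are shown because these 3 genes rose together (RefSeq, GRCm38.p6). Csn1s1 is at chr5:87665958-87666207 on the plus strand, Csn2 at chr5:87699426-87699675 on the minus strand and Csn1s2a at chr5:87774200-87774449 on the plus strand. Each is written 5′ to 3′ along its gene, and capitals mark matches to TTCNNNGAA, which reads the same on both strands.
Csn1s1: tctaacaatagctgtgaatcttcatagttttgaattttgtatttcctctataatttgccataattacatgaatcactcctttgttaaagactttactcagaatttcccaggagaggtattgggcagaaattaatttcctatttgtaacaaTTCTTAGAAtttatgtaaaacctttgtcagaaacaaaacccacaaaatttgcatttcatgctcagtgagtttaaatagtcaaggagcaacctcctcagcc
Csn2: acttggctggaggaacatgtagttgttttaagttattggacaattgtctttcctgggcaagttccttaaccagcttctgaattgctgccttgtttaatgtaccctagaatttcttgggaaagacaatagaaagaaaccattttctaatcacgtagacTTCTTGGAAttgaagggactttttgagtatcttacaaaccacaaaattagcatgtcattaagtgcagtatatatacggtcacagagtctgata
Csn1s2a: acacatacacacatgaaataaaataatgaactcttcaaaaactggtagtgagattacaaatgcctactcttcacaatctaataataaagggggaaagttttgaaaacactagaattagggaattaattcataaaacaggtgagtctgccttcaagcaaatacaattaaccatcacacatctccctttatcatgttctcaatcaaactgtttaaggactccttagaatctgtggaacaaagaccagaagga
Csn1s1 holds 1 match that starts 100 bases before the gene's start, and Csn2 holds 1 that starts 93 bases before it. In the window of Csn1s2a the letters do not occur. The motif is present in 7.02% of 32851 promoter windows of this length, and a match is a description of the sequence only.

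Of 17 milk protein genes measured, these 3 rose, none fell and 14 did not pass the test, and the median difference was 0.24. Ltf, the iron-binding protein lactoferrin, had values of 9.70, 9.29 and 9.31 in parous pools against 8.87, 7.37 and 6.86, a difference of 1.73 that fell just short of a call (adjusted p = 0.053). It was called without nulliparous pool 1 (adjusted p = 0.00452), with array weights (0.00214), with dim genes left out (0.037), with the pool as a random block (0.0447) and with the replicate block (0.0148). Ltf stayed uncalled under all other alternatives, among them quantile normalization, the 6 samples alone and the omission of any other sample. Wap, the whey acidic protein that dominates late lactation, differed by 0.24 ± 0.15 (95% interval -0.07 to 0.54). Csn3, kappa-casein, differed by 1.43 ± 0.70 (adjusted p = 0.477), and Glycam1 was scattered between 4.89 and 11.31 in nulliparous and between 5.20 and 11.18 in parous pools. Of 20 genes of milk lipid synthesis none passed the test, and the median was -0.01.

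Hp, haptoglobin, which binds free haemoglobin, rose with the caseins. It was measured at 8.08, 8.35 and 8.06 in parous and 6.12, 6.93 and 5.77 in nulliparous pools, a rise of 1.89 ± 0.39 (adjusted p = 0.00981), which missed the threshold without parous pool 2 or nulliparous pool 3 (0.0627 and 0.0663). The other 14 of 15 complement and acute phase genes did not pass. Among 14 genes of prolactin and STAT signalling only Il6st, the gp130 subunit shared by receptors of the interleukin 6 family, was called: its parous values of 11.11, 11.25 and 11.10 lay above the nulliparous 10.73, 10.74 and 10.75. That rise of 0.41 was lost without any one sample (adjusted p 0.0576 to 0.176) and with quantile normalization (0.0894). Cish, a feedback target of STAT5, differed by 0.57 (adjusted p = 0.172). Luminal cells express caseins strongly, so luminal markers belong beside these values. None of 12 pan-luminal markers was called, and their mean level was 8.53 to 8.73 in parous and 8.79 to 8.81 in nulliparous pools. None of 10 luminal progenitor markers was called either, with mean levels of 8.19 to 8.28 and 7.62 to 8.60. The pan-luminal list was lower in every parous pool than in every nulliparous pool. The luminal progenitor list, which includes the casein gene Csn3, was higher in every parous pool than in nulliparous pool 3 (7.62). It was lower in every parous pool than in nulliparous pools 1 and 2 (8.60 and 8.53). The part of luminal RNA in the casein and Hp rises was not tested.

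The genes of basal and myoepithelial identity had SEs of 0.17 to 0.23 log2 units in the fit of all 35 samples. That fit uses 1 spread per gene for every subpopulation, so these SEs and intervals also carry spread from other cells. Krt14, for example, had an SD of 0.07 in parous and 0.02 in nulliparous pools here, and 1.11 over the stromal samples. Of 10 basal and myoepithelial identity genes none was called, the median was 0.09, and the mean level of the list was 10.21 to 10.36 in parous and 10.18 to 10.34 in nulliparous pools. Krt5 differed by 0.09 (95% interval -0.28 to 0.46), Krt14 by -0.03 (-0.47 to 0.42), Acta2 by -0.06 (-0.42 to 0.29) and Myh11 by 0.11 (-0.29 to 0.50). Trp63, the transcription factor that maintains the basal layer, differed by -0.02 (-0.48 to 0.43). Oxtr, the oxytocin receptor, was at 6.18, 6.79 and 6.26 against 6.59, 5.99 and 5.95 and differed by 0.23 (-0.23 to 0.69). The sorting antigens Itga6 and Cd24a differed by 0.21 and 0.33, and neither passed. The upper and lower bounds of these genes lie within 1 log2 unit of 0, which does not show that the groups are equal.

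Among 19 genes of the contractile apparatus 2 rose, none fell, and the median was 0.15. Of the 19 differences 16 were positive. A group of 6 genes was higher in all parous pools (6.77% of all genes were), and 2 were lower (7.56% of all genes were). Actg2 was 1 of those 2 (-0.71, adjusted p = 0.103). The mean level of the list was 8.972 to 9.145 in parous and 8.764 to 8.94 in nulliparous pools, without overlap. Pgm5, a structural protein of muscle cell junctions without enzyme activity, was at 8.64, 8.39 and 8.42 in parous and 7.44, 7.33 and 6.84 in nulliparous pools, a rise of 1.28 ± 0.25 (adjusted p = 0.00569). Synm, the intermediate filament protein synemin, was at 8.86, 8.48 and 8.44 against 8.11, 7.55 and 7.80, a rise of 0.77 ± 0.17 (adjusted p = 0.0177). The groups did not overlap for either gene, and Synm lost its call without parous pool 1 or nulliparous pool 2 or 3 (0.0533 to 0.16). A pair of genes outside the lists, chosen after their values were seen, encode partners in the same structures. Flnc, filamin C, rose by 1.27 ± 0.17 from 7.82, 7.83 and 8.16 to 9.06, 9.29 and 9.28 (adjusted p = 8.02e-05). Sync, syncoilin, rose by 0.77 ± 0.16 (adjusted p = 0.00981), and its call was kept in 4 of the 6 fits that left out a sample.

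Several genes that set the local supply of IGFs were lower. IGF-binding proteins hold IGFs in the extracellular space, and Pappa is the protease that cleaves several of them. Of 19 genes of the IGF axis 4 fell and none rose. The ligands Igf1 and Igf2 (-0.27 and -0.03) and the receptors Igf1r, Igf2r and Insr (0.01, 0.06 and 0.01) did not pass, and the median of the list was -0.04, and the called members were 3 of the binding proteins and the protease.

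Pappa was measured at 6.35, 6.26 and 6.45 in parous pools and at 7.72, 9.05 and 8.62 in nulliparous pools. All parous values lay within 0.2 log2 units, and the lowest nulliparous value, in pool 1, was still more than 1 unit above them. The fall was -2.11 ± 0.29 (adjusted p = 1.2e-04). Igfbp3, the main carrier of IGFs in plasma, was at 8.79, 8.56 and 8.59 against 9.97, 10.66 and 10.43, a fall of -1.71 ± 0.28 (adjusted p = 8.85e-04). Igfbp2 was at 7.34, 7.32 and 7.16 against 7.68, 8.64 and 8.19 (-0.90 ± 0.21), and Igfbp4, a preferred substrate of Pappa, at 6.56, 6.61 and 6.66 against 7.25, 7.43 and 7.03 (-0.63 ± 0.12). Pappa and Igfbp3 kept their calls without any single sample. Without nulliparous pool 2 the list had 2 calls in place of 4, since both Igfbp2 and Igfbp4 missed the threshold (adjusted p = 0.259 and 0.0877), and Igfbp2 also missed it without each other sample except nulliparous pool 1. Igfbp5, the binding protein most tied to involution, was at 10.43, 10.43 and 10.32 against 11.17, 11.08 and 10.52. Its groups did not overlap, and its difference of -0.53 was not called (adjusted p = 0.341).

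**Figure D2:**
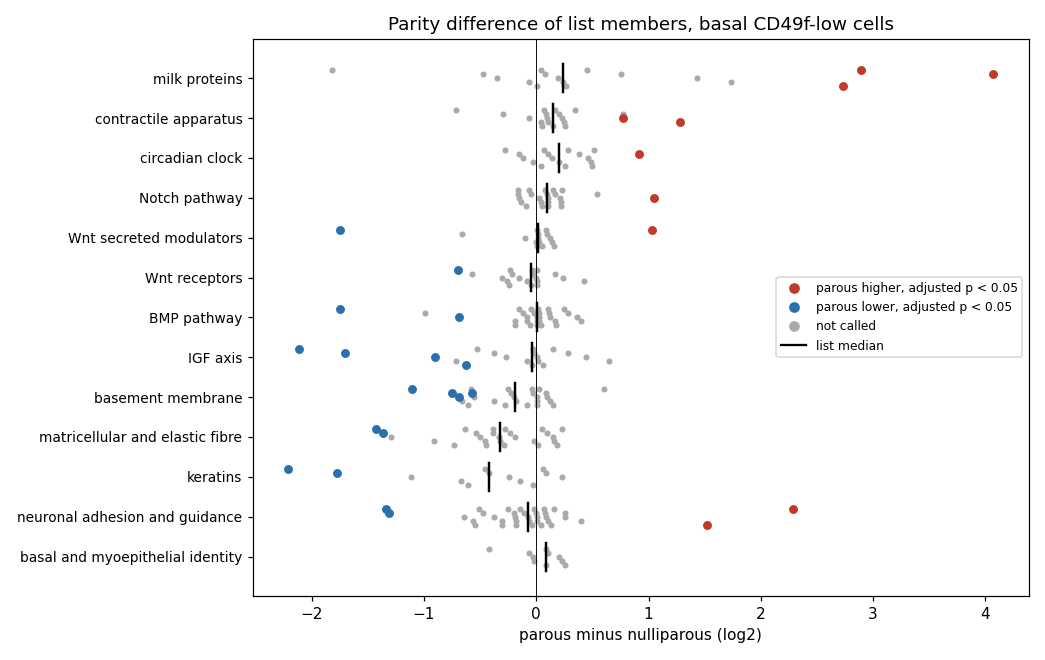
Points are the genes of 13 lists, placed by their parous minus nulliparous difference (log2, horizontal axis). Called rises are red, called falls blue, other genes grey, and the black bar is the list's median: the IGF axis holds 4 called falls with a median of -0.04, while the basal and myoepithelial identity list holds no call.

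The basement membrane, the laminin and type IV collagen sheet on which basal cells rest and which they help to make, was the second group of falls. Of 26 genes 4 fell and none rose, the median was -0.19, and 12 genes were lower in all parous pools than in every nulliparous pool (7.56% of all genes were). Lama4, laminin alpha 4, was at 5.81, 5.96 and 5.78 against 6.73, 7.30 and 6.84, a fall of -1.11 ± 0.19 (adjusted p = 0.00118). Lama1, laminin alpha 1, was at 7.83, 7.59 and 7.59 against 8.32, 8.59 and 8.36, a fall of -0.75 ± 0.15 (adjusted p = 0.00959). Lamc1, the gamma chain of most laminins, fell by 0.57 and Col4a2, a type IV collagen chain, by 0.69. In all 4 genes the groups were separate. Col4a1, the partner chain of Col4a2, differed by -0.61 (adjusted p = 0.081), and Agrn, agrin, by -0.55 (adjusted p = 0.059). Lama3, Lamb3 and Lama5, chains typical of the laminins beneath epithelia, differed by 0.01, -0.38 and -0.23 and were not called. Lama4 was the only call of this list left without parous pool 2 or 3 or nulliparous pool 2, and 2 calls were left without parous pool 1.

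Fbn2 and Fbln2, which encode elastic fibre components, also fell. Of 26 matricellular and elastic fibre genes 2 fell and none rose, with a median of -0.33. Fbn2, fibrillin 2, was at 5.79, 5.50 and 5.51 in parous and 6.77, 7.12 and 7.21 in nulliparous pools (-1.43 ± 0.22, adjusted p = 3.1e-04). Fbln2, fibulin 2, was at 6.81, 7.07 and 7.11 against 7.93, 8.61 and 8.56 (-1.37 ± 0.20, adjusted p = 2.6e-04). Both calls held without any single sample. Of 19 genes of the TGF-beta pathway, the matricellular Thbs1, thrombospondin 1, was called lower, from 11.11, 11.66 and 11.41 to 10.60, 10.71 and 10.61. Its fall of 0.75 was kept only without nulliparous pool 1 (adjusted p 0.0927 to 0.258 in the other such fits).

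Matrix genes did not all fall. The aggrecan-cleaving protease Adamts5 was at 9.40, 9.59 and 8.98 in parous and 7.59, 7.06 and 8.26 in nulliparous pools, a rise of 1.69 ± 0.28 (adjusted p = 8.13e-04). Its relative Adamts18, a protease of the same family, went the other way, from 7.83, 8.48 and 7.42 to 6.71, 6.13 and 6.57, a fall of -1.44 ± 0.23 (adjusted p = 7.66e-04). Both calls held without any single sample and were lost in the fit of the 6 samples alone (0.0528 and 0.074). The other 30 of 32 proteases and inhibitors did not pass. Among 14 small leucine-rich proteoglycans, which organise collagen fibrils, Ogn (osteoglycin) rose and Lum (lumican) fell. Ogn stood at 6.79, 7.56 and 6.31 in parous and 5.05, 4.93 and 5.33 in nulliparous pools (1.78 ± 0.30, adjusted p = 0.00105). Lum was at 5.57, 5.09 and 4.26 against 6.21, 7.12 and 6.70 (-1.70 ± 0.41, adjusted p = 0.0339), a call lost without parous pool 2 or 3 or nulliparous pool 2 or 3 (0.0768 to 0.242). The 18 interstitial collagens and 18 integrins held no call, with medians of -0.08 and -0.05.

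Fibroblast markers are given beside the matrix genes. Of 9 markers Lum fell and the other 8 did not pass, 8 of 9 differences were negative, and the median was -0.77. In 6 of the 9 all parous pools were below every nulliparous pool, against 7.56% of all genes. The mean level of the list was 6.23 to 6.62 in parous and 6.80 to 7.31 in nulliparous pools, without overlap, and 10.36 to 10.84 in sorted stromal samples. No marker was at 0, since array values have no zero: Pdgfra, a receptor that defines fibroblasts, was at 6.15 to 7.55 in the 6 samples and at 10.96 to 11.15 in stromal samples. In nulliparous mice 18 of the 136 falls (13.2%) and 8 of the 57 rises (14%) were more than 1 log2 unit higher in stromal than in basal CD49f-low cells, against 3.88% of all genes. In the opposite direction 43 of the 136 falls (31.6%) and 4 of the 57 rises (7.02%) were more than 1 log2 unit lower in stromal cells, against 2.56% of all genes. Lum was among the genes higher in stromal cells, with 11.19 in nulliparous stromal cells, and so were Ogn with 10.86, Adamts5 with 10.22 and Medag with 9.17. Pappa, Krt15 and Lama1 were lower in nulliparous stromal cells (6.25, 5.83 and 5.58) than in nulliparous basal CD49f-low cells. Against luminal cells, 61 of the 136 falls (44.9%) were more than 1 log2 unit lower in both luminal subpopulations, and 2.67% of all genes were. These gaps were taken from the nulliparous basal CD49f-low level, which also entered the choice of rises and falls. The shares therefore depart from those of all genes partly by construction, and they do not show the source of the RNA. The part of fibroblast RNA in the matrix falls was not tested.

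A pair of keratins fell, while the structural keratins of the basal layer did not pass the test. Of 13 keratin genes Krt15 and Krt23 were called lower, none rose, and the median was -0.42. A group of 6 keratin genes was lower in all parous pools, against 7.56% of all genes. Krt15, a basal keratin linked to progenitors in stratified epithelia, was at 8.05, 7.14 and 7.37 in parous and 9.01, 9.86 and 10.32 in nulliparous pools, a fall of -2.21 ± 0.31 (adjusted p = 1.4e-04). Krt23 was at 7.51, 6.77 and 7.32 against 8.45, 9.49 and 8.98, a fall of -1.77 ± 0.37 (adjusted p = 0.0114), and missed the threshold without parous pool 2 or nulliparous pool 2 (0.0938 and 0.117). In both genes the 3 parous pools were below all nulliparous pools.

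The largest fall was in Serpinb11, an intracellular member of the serine protease inhibitor family. Its values were 3.44, 3.02 and 3.15 in parous pools and 4.29, 7.54 and 8.18 in nulliparous pools. The parous values lie near the bottom of the array's range, and nulliparous pool 1 lay far closer to them than to the other nulliparous pools. The fall was -3.47 ± 0.69 (adjusted p = 0.00748). Without nulliparous pool 1 it was -4.66, and without nulliparous pool 2 or 3 it was no longer called (adjusted p = 0.0843 and 0.0678). Nulliparous pool 1 had the lowest nulliparous value in 81 of the 136 falls, against 12 for pool 2 and 43 for pool 3.

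Wnt ligands support self-renewal of basal cells, and both Wnt and BMP signals are restrained by secreted inhibitors. Sostdc1, which can inhibit both BMP and Wnt signalling, was at 6.44, 6.36 and 5.95 in parous and 7.71, 7.82 and 8.46 in nulliparous pools, a fall of -1.75 ± 0.25 (adjusted p = 1.4e-04). Sfrp1, a secreted Wnt inhibitor, moved the other way, from 7.85, 7.65 and 8.09 to 8.78, 8.84 and 9.06, a rise of 1.03 ± 0.26 (adjusted p = 0.046). No single omission left the Sfrp1 call standing (0.0533 to 0.227), nor did quantile normalization (0.057), whereas that of Sostdc1 stood in every such fit. These were the calls among 16 secreted modulators.

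Of 18 Wnt ligands none passed, with a median of -0.01, and Wnt4, the ligand induced by progesterone in luminal cells, differed by -0.05 (95% interval -0.31 to 0.21). Of 19 Wnt receptors and co-receptors Lgr6, a receptor for R-spondins, fell by 0.70 from 7.37, 7.60 and 7.19 to 6.85, 6.76 and 6.46 (adjusted p = 0.0153), a call lost without parous pool 3 or nulliparous pool 2 (0.139 and 0.142). Lgr5 and Procr, which mark basal cells with stem cell activity, differed by -0.09 (-0.41 to 0.24) and -0.26 (-0.79 to 0.27). None of 14 Wnt targets was called, and Axin2 differed by -0.20 (-0.61 to 0.20).

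In the BMP pathway 2 of 29 genes fell and none rose: Sostdc1 and the ligand Bmp7, which went from 7.82, 8.14 and 7.89 to 7.29, 7.44 and 7.07. The fall of Bmp7 was 0.69 ± 0.14 (adjusted p = 0.00681), lost without parous pool 3 or nulliparous pool 2 (0.0717 and 0.0821). The BMP targets Id1, Id2 and Id3 differed by -0.08, 0.02 and 0.24. Of 23 Notch genes only Maml2, a co-activator of the Notch transcription complex, was called. It was at 8.63, 8.60 and 8.20 in parous and 7.17, 7.49 and 7.62 in nulliparous pools, a rise of 1.05 ± 0.21 (adjusted p = 0.0085), and its other probe set gave 1.04. The call was lost without parous pool 1 or 2 or nulliparous pool 1 (0.0523 to 0.0603). Rbpj, the DNA-binding partner in that complex, differed by 0.55 (adjusted p = 0.059), and Notch1, Jag1 and Hey1 by 0.05, -0.14 and 0.22.

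Eya1, a transcriptional co-activator and phosphatase of developing organs, was at 5.60, 4.98 and 5.80 in parous and 7.14, 7.23 and 7.18 in nulliparous pools. Its nulliparous values spanned only 0.1 log2 units, and the fall was -1.72 ± 0.26 (adjusted p = 3.2e-04). The other 8 measured genes of the Eya family and its partner families did not pass, and of 23 lineage and epithelial-mesenchymal transcription factors none did.

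Genes best known from neurons changed in both directions. Of 36 genes of neuronal adhesion and guidance 2 rose and 2 fell, with a median of -0.07. Frmpd4, a scaffold protein of excitatory synapses, was at 7.60, 8.31 and 8.20 in parous and 5.90, 5.33 and 6.04 in nulliparous pools, a rise of 2.28 ± 0.22 (adjusted p = 2.86e-07). Nrcam, an immunoglobulin-family adhesion molecule, was at 6.09, 6.62 and 6.23 against 5.22, 4.52 and 4.62, a rise of 1.52 ± 0.16 (adjusted p = 1.92e-06). The guidance ligand Slit2 and its receptor Robo2 both fell. Slit2 went from 6.93, 7.71 and 7.25 to 5.99, 5.83 and 6.06 (-1.34 ± 0.23, adjusted p = 0.00118), and Robo2 from 5.86, 7.27 and 7.11 to 5.23, 5.67 and 5.41 (-1.31 ± 0.31, adjusted p = 0.0354). Robo2 kept its call only without nulliparous pool 1, where the values of the groups came closest (0.065 to 0.249 in the other such fits), while Slit2, Frmpd4 and Nrcam kept theirs without any sample. Slit3 and Robo1 differed by 0.16 and -0.51 and were not called. Markers of Schwann cells and glia, 6 genes, held no call and a median of 0.04.

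Of 18 cadherins, the adhesion proteins of cell junctions, 1 rose and 1 fell. The protocadherin Pcdh7 was at 9.08, 9.21 and 9.19 in parous and 7.90, 7.50 and 8.30 in nulliparous pools (1.26 ± 0.20, adjusted p = 5.47e-04). The desmosomal cadherin Dsc2 was at 5.39, 6.19 and 5.40 against 7.24, 7.09 and 6.88 (-1.41 ± 0.23, adjusted p = 6.29e-04).

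Several further rises came from no common list. Medag, a gene known from adipocyte differentiation, was at 7.59, 8.28 and 7.96 in parous and 5.61, 5.73 and 6.30 in nulliparous pools (2.06 ± 0.19, adjusted p = 2.86e-07), while none of 7 adipocyte markers was called and their median was -0.02. Dclk1, a microtubule-associated kinase, rose by 1.36 ± 0.23. Cd109, a surface protein that binds TGF-beta, rose by 1.49 ± 0.25. Thsd7a, a membrane protein with thrombospondin repeats, rose by 1.34 ± 0.22. Skint7, of a family of immunoglobulin-like proteins of skin and thymus epithelium, rose by 1.56 ± 0.29 from 4.36, 4.67 and 5.50 to 6.60, 6.72 and 5.90. Itprid1 rose by 1.36 ± 0.30, and of these rises it alone lost its call when a single sample was left out, each but nulliparous pool 1 (0.0539 to 0.117). Skint7, Cd109 and Thsd7a were lost in the fit of the 6 samples alone (0.0813, 0.0562 and 0.0562).

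The clock gene Nr1d1, which encodes the repressor REV-ERB alpha, was at 10.31, 10.35 and 10.14 in parous and 9.63, 9.14 and 9.26 in nulliparous pools. That rise of 0.92 ± 0.18 (adjusted p = 0.00756) was lost without nulliparous pool 2 (0.0791). It was the only call among 17 clock genes, whose median was 0.20. A group of 7 of the 17 was higher in all parous pools, against 6.77% of all genes. Nr1d2 and Rora, of the same receptor families, differed by 0.49 and 0.51 (adjusted p = 0.078 and 0.059), and Per1, Per2 and Dbp by -0.03, 0.10 and 0.04. Small rises of Zfp36, an mRNA decay factor (0.49), and Bag3, a co-chaperone (0.41), were the single calls among 22 immediate early and 11 heat shock genes. Both were lost in most fits that left out a sample (adjusted p up to 0.153 and 0.252) and with quantile normalization (0.113 and 0.123). Of the immediate early genes 18 of 22 differences were positive with a median of 0.24, and 8 genes were higher in all parous pools. Their mean level was 9.48 to 9.55 in parous and 9.20 to 9.49 in nulliparous pools. Of the heat shock genes 10 of 11 differences were positive with a median of 0.19, and 5 genes were higher in all parous pools. Their mean level was 10.71 to 10.92 in parous and 10.45 to 10.66 in nulliparous pools, without overlap. Of all genes 6.77% were higher in all parous pools. The part of these lists in the other differences was not tested.

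Among the further falls, the sialyltransferase gene St8sia6 went from 6.46, 7.49 and 7.75 to 4.92, 5.11 and 5.09 (-2.20 ± 0.28, adjusted p = 6.76e-05). Moxd1, a monooxygenase-like enzyme, went from 7.76, 9.08 and 9.04 to 6.43, 6.24 and 6.70 (-2.17 ± 0.32, adjusted p = 2.6e-04). Sorcs1, a sorting receptor, went from 6.57, 7.52 and 7.20 to 5.80, 4.99 and 5.27 (-1.75 ± 0.25, adjusted p = 1.4e-04). These 3 calls held without any sample. The chemokine Ccl11, which attracts eosinophils, went from 9.52, 9.56 and 9.02 to 7.43, 8.39 and 7.37. Its fall of -1.64 ± 0.33 (adjusted p = 0.0085) was the single call among 20 chemokine genes and was lost without parous pool 1 or 3 or nulliparous pool 2 (0.0557 to 0.0718). In nulliparous stromal cells Ccl11 stood at 12.10, and the part of stromal RNA in its fall was not tested. The epithelial calcium channel Trpv6 fell by 0.99 ± 0.19 and was the single call among 31 genes of calcium handling and ion channels, lost without parous pool 2 or nulliparous pool 1 (0.0735 and 0.062).

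The amino acid transporter Slc6a15 (-1.74), the thioesterase Them5 (-1.68) and the spindle checkpoint gene Mad2l1 (-1.76) complete the 15 largest falls. None kept its call in more than 2 of the 6 fits that left out a sample: the lost calls had adjusted p 0.0616 to 0.188 for Slc6a15, 0.0849 to 0.214 for Them5 and 0.141 to 0.171 for Mad2l1. Of 33 proliferation genes, a list that does not hold Mad2l1, none passed the test, though 30 differences were negative and the median was -0.38. Of these genes 12 were lower in all parous pools than in every nulliparous pool, against 7.56% of all genes. The mean level of that list was 5.52 to 5.66 in parous pools and 5.66, 5.91 and 6.38 in nulliparous pools 1 to 3.

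**Figure D3:**
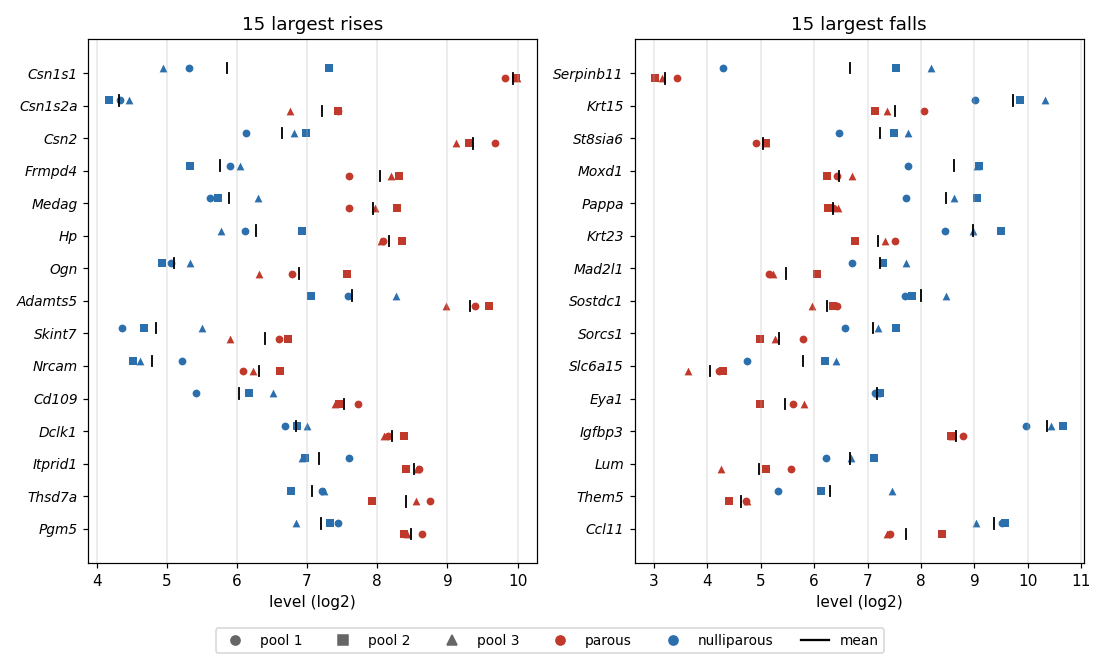
The level of each of the 15 largest rises (left) and 15 largest falls (right) is shown on the horizontal axis (log2) for the 3 parous (red) and 3 nulliparous (blue) pools, with the pool as marker shape and a black bar at the mean. Lack of overlap between the groups was part of the rule that chose these genes. For Serpinb11 nulliparous pool 1, at 4.29, sits apart from pools 2 and 3 at 7.54 and 8.18.

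The parity differences of these genes were set against those in the other sorted subpopulations by testing the difference between the effects. Basal CD49f-high cells, the nearest sort, had 2 parous and 3 nulliparous samples of 2000 cells each, so cell number differs with the subpopulation. Across all genes 2.27% differed between the basal subpopulations, and 30 of the 193 parity-called genes did. The 193 genes were chosen by their effect in CD49f-low cells, which is part of each difference tested. A higher share among them was therefore built in, here and in the luminal and stromal comparisons below. In basal CD49f-high cells the 57 rises had a median effect of 0.23 and the 136 falls one of -0.58. That 2.27% depended on the samples: 453 genes passed in all, 185 without nulliparous pool 1 of the CD49f-low cells, 283 and 288 without parous pool 2 or 3, and 755 without nulliparous pool 3. Deviations of the CD49f-low samples correlated with those of same-numbered samples of other subpopulations at 0.105 to 0.204 (nulliparous) and 0.069 to 0.081 (parous). For other numbers the correlation was -0.113 to -0.028. Deviations from a group mean cancel within the group, so these negative values follow from the positive ones and are no separate baseline. With the pool as a random block 686 genes passed, with the replicate block 923, and with the samples of the basal subpopulations alone 17.

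Medag differed most clearly between the basal sorts, with 2.06 in CD49f-low and -0.67 in CD49f-high cells, a difference of 2.74 ± 0.29 (adjusted p = 5.11e-06). Adamts5 (1.69 against -0.08) and Dclk1 (1.36 against -0.31) also differed (adjusted p = 0.0207 and 0.00989). In the basement membrane list Lama1 had -0.75 here and 0.35 in CD49f-high cells (adjusted p = 0.0104). Lgr5 did not pass in CD49f-low cells, at -0.09, and stood at -1.58 in CD49f-high cells, a difference of 1.5 ± 0.24 (adjusted p = 8.88e-04). The contractile gene Synm, called higher here, also differed (adjusted p = 0.00197). For the genes listed next the difference did not pass, which does not show that the effects are alike. Pappa had -2.11 and -2.12 (difference 0.003 ± 0.43) and Ogn 1.78 and 1.85 (-0.07 ± 0.45) in CD49f-low and CD49f-high cells. Krt15 had -2.21 and -3.22 (1.01 ± 0.46), Igfbp3 -1.71 and -2.55 (0.84 ± 0.42) and Nrcam 1.52 and 1.94 (-0.42 ± 0.24). Frmpd4 had 2.28 and 1.24, Pgm5 1.28 and 2.07, Eya1 -1.72 and -1.28, and Sostdc1 -1.75 and -0.89. Sorcs1 had -1.75 and -0.92, Moxd1 -2.17 and -1.96, St8sia6 -2.20 and -1.725, and Serpinb11 -3.47 and -5.25.

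Against the mean of both luminal subpopulations, 0.477% of genes differed, among them 56 of the 193 parity-called genes. Frmpd4 was at 0.01 and -0.02 in luminal Sca1-negative and Sca1-positive cells (difference of effects 2.29 ± 0.27, adjusted p = 2.2e-05), and Nrcam at -0.17 and -0.10 (1.66 ± 0.20, adjusted p = 2.29e-05). Ogn, Cd109, Dclk1, Medag and Thsd7a among the rises, and Eya1, Sorcs1, Sostdc1, Pappa, Moxd1, St8sia6 and Krt15 among the falls, differed as well. Emb, embigin, a partner of monocarboxylate transporters and integrins that was chosen after its values were seen, had opposite signs. It fell by 1.56 in basal CD49f-low cells and stood at 2.19 and 1.91 in the luminal subpopulations (difference -3.60 ± 0.39, adjusted p = 1.3e-05). Igfbp5, at -0.53 here and 1.11 and 0.71 in luminal cells, differed by -1.44 ± 0.26 (adjusted p = 0.00504). The total of 95 genes fell to 41 without nulliparous pool 2 and to 63 without parous pool 2.

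The 3 called caseins and Hp had positive parity effects in every sorted subpopulation, and no difference between effects passed for them. Several of these effects did not pass on their own. In stromal cells adjusted p was 0.150 for Csn1s1, 0.672 for Csn2, 0.294 for Csn1s2a and 0.123 for Hp. It was 0.306 for Csn1s1 and 0.081 for Csn2 in luminal Sca1-negative cells, and 0.109 for Hp in luminal Sca1-positive cells. Csn1s1 had 4.07 here, 5.24 in basal CD49f-high, 2.12 and 4.11 in luminal Sca1-negative and Sca1-positive, and 2.96 in stromal cells. Its nulliparous mean was 9.51 in luminal Sca1-negative cells, the highest of these groups. Hp had 1.89 here, and 2.22, 2.24, 1.44 and 1.41 in the same order.

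Against stromal cells 0.241% of genes differed, 23 of the 193 among them. Frmpd4 was at 0.02 and Medag at 0.08 in stromal cells (both adjusted p = 2.5e-04), and Pappa at 0.10 and Krt15 at 0.20 (adjusted p = 0.014 and 0.0123). Fbln2 fell by 1.37 here and was at -0.01 in stromal cells, a difference that also passed (adjusted p = 0.0295). Lum was at 0.01 in stromal cells, and its difference of -1.71 did not pass (adjusted p = 0.366). Of 48 such genes 19 were left without parous pool 2 and 20 without nulliparous pool 2; 74 passed with the pool as a random block and 8 with the samples of these subpopulations alone.

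**Figure D4:**
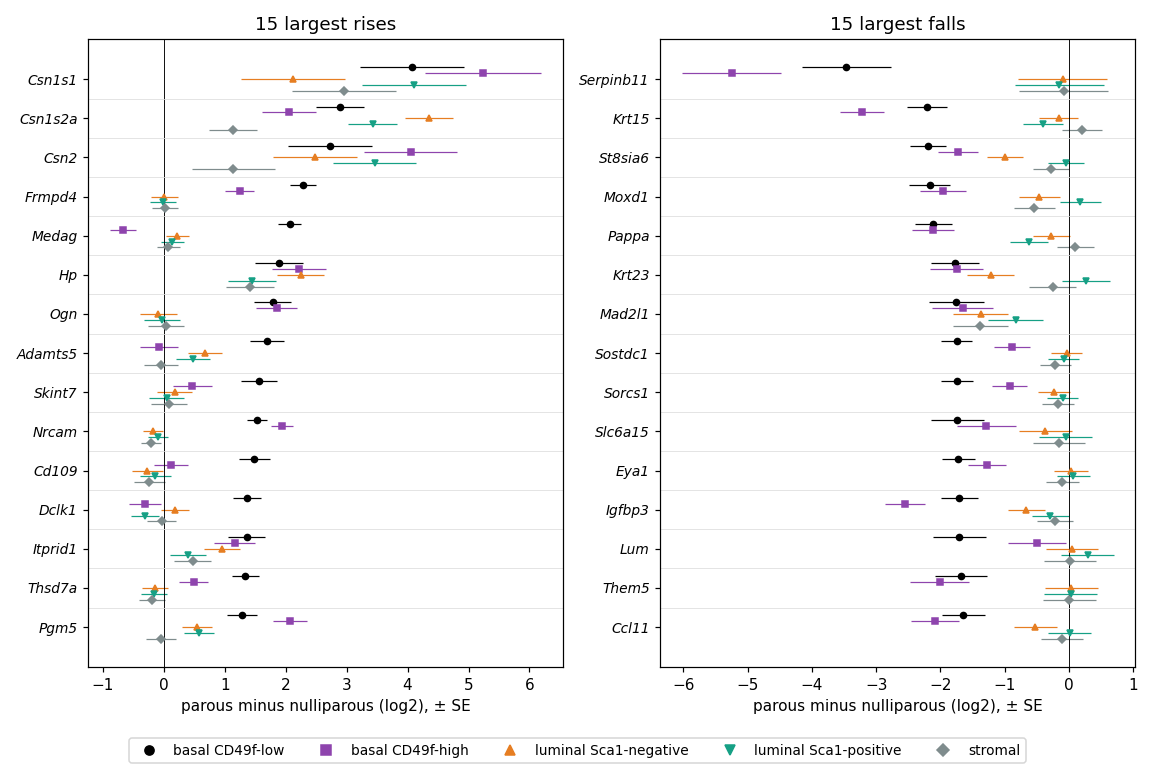
For each of the 15 largest rises (left) and falls (right) in basal CD49f-low cells, the horizontal axis gives the parous minus nulliparous difference (log2) ± SE in 5 sorted subpopulations, distinguished by colour and marker. Frmpd4 and Eya1 are near 0 in luminal and stromal cells and at 1.24 and -1.28 in basal CD49f-high cells. Csn1s1 is positive in all 5, though its effect did not pass in stromal or luminal Sca1-negative cells. Medag is 2.06 in basal CD49f-low and -0.67 in basal CD49f-high cells.

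Markers of endothelial cells (10 genes), macrophages and dendritic cells (11), lymphocytes (10), mast cells (8), pericytes and vascular smooth muscle (8) and skeletal muscle (6) held no call. Their medians were -0.09, 0.01, 0.004, -0.002, -0.15 and 0.003, and the level of each list overlapped between parous and nulliparous pools. Among the lists of cell type markers, the fibroblast and pan-luminal lists were those whose levels did not overlap, both lower in parous pools. Of 7 markers of hormone-sensing luminal cells none passed; among them Esr1 and Pgr, the oestrogen and progesterone receptors, differed by -0.12 and -0.24, and Tnfsf11, the RANK ligand, by -0.05.

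**Figure D5:**
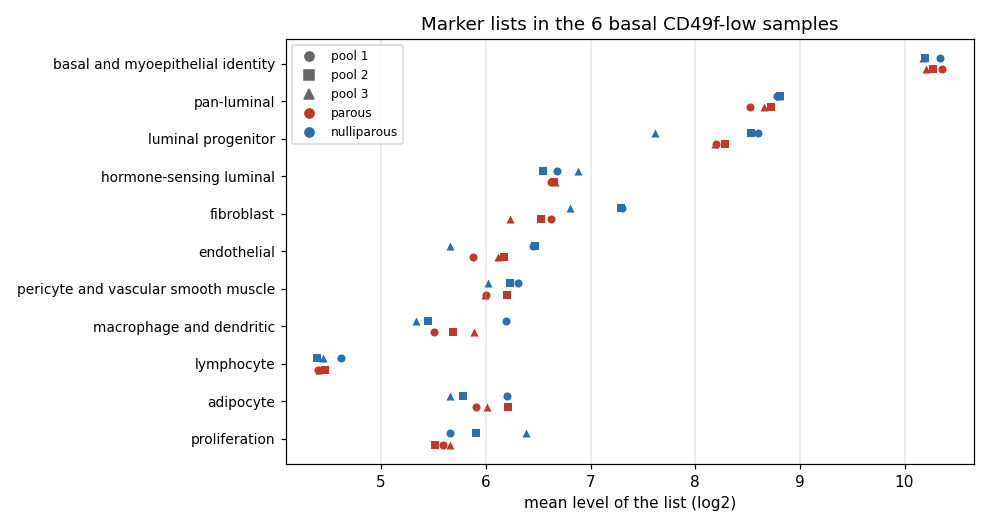
The mean level of 11 gene lists (log2, horizontal axis) is shown for each of the 3 parous (red) and 3 nulliparous (blue) pools, with the pool as marker shape. The fibroblast list lies at 6.23 to 6.62 in parous and 6.80 to 7.31 in nulliparous pools, while the basal and myoepithelial identity list lies at 10.21 to 10.36 and 10.18 to 10.34.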

How the data were processed

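The values are log2 expression per probe set, deposited by the submitters as 1 table for all 35 samples. Per the submitters' processing notes the affy software was used; for its version, the normalization and the background correction, nothing is given in the sources used here. Values run from 1.74 to 13.28, with column medians of 5.813 to 5.924. Of 34760 probe sets, a supplied platform annotation gave a single symbol to 21640, several to 1321 and none to 11799. For 954 genes with several probe sets the one with the highest mean was kept, which left 19937 genes.

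All 35 samples were fitted as 12 group means (6 subpopulations by 2 histories) in limma 3.58.1 (R 4.3.3) with lmFit and eBayes with a trend. The contrasts were parous minus nulliparous in basal CD49f-low cells and its difference from that in basal CD49f-high cells, from the mean of both luminal subpopulations and from stromal cells. Tests were two-sided, with Benjamini-Hochberg adjustment across the 19937 genes and calls under 0.05. SE and 95% intervals are the fit's. The fit was tested on simulated data.

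Named genes are the 15 largest called rises and falls without overlap, leaving out predicted and serial symbols, called members of gene lists, and a fixed panel; others are said to be chosen after their values were seen. The members and lists were chosen with earlier results of these data known, and no set test was run. Alternatives were eBayes without a trend, array weights, quantile normalization, leaving out the 40% dimmest genes, the mean of a gene's probe sets, the pool as a random block, a replicate block, the samples of the comparison alone, and leaving out each of the 6 samples. The labels call samples of a group biological replicates, each a separate pool of mice; they give no array batch.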

Additional observations from a re-analysis of the deposited data

Results flagged for a closer look

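For the following genes the parity effect in basal CD49f-low cells differed from that in another sorted subpopulation by the limma test of the difference itself (adjusted p under 0.05 over all genes); differences of effects are in log2 units. Against basal CD49f-high cells the difference was 2.74 for Medag, 1.77 for Adamts5, 1.67 for Dclk1 and 1.5 for Lgr5.

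Against the mean of both luminal subpopulations it was 2.29 for Frmpd4, 1.88 for Medag, 1.84 for Ogn, 1.69 for Cd109, 1.66 for Nrcam, 1.49 for Thsd7a and 1.43 for Dclk1. On the negative side it was -2.02 for Moxd1, -1.93 for Krt15, -1.77 for Eya1, -1.69 for Sostdc1, -1.68 for St8sia6, -1.66 for Pappa, -1.58 for Sorcs1 and -1.44 for Igfbp5.

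Against stromal cells it was 2.26 for Frmpd4, 1.99 for Medag, 1.73 for Nrcam, 1.72 for Cd109 and 1.53 for Thsd7a, and -2.40 for Krt15, -2.21 for Pappa, -1.92 for St8sia6 and -1.58 for Sorcs1. Krt14 (1.97), Krt5 (1.94) and Itga6 (1.41) also differed there: these basal genes had parity effects of -2.0, -1.85 and -1.20 in stromal cells and no called effect in basal CD49f-low cells. In stromal samples Krt14 was at only 5.25 to 7.73 and Krt5 at 5.65 to 7.88, against 11.08 to 11.22 and 11.28 to 11.71 in basal CD49f-low samples. Other epithelial genes also varied among stromal samples, with Krt8 at 8.44 to 11.09 and Epcam at 5.64 to 8.39. The part of epithelial RNA in these stromal effects was not tested.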

How the results depend on the processing

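Trend, dim-gene filter, quantile normalization and averaged probe sets left all 6 counts within 1.5 times. Quantile normalization ended 4 of the 54 calls followed, those of Sfrp1 (0.057), Il6st (0.0894), Zfp36 (0.113) and Bag3 (0.123), and made 79% of the parity calls falls in place of 70.5%. Array weights, which gave nulliparous pool 1 a weight of 0.39 and pool 2 one of 2.07, raised the parity calls to 544 (179 rises, 365 falls), which include 190 of the 193; they gave 110, 265 and 126 genes whose effect differed from that in basal CD49f-high, luminal and stromal cells. The fit of the compared samples alone gave 62 parity calls (24 rises, 38 falls), 52 of them among the 193, and 17 and 8 genes that differed from basal CD49f-high and stromal cells. With the pool as a random block 686 and 74 genes differed from these. Across histories replicate numbers did not pair the samples: deviations of same-numbered parous and nulliparous samples correlated at -0.05, 0.036 and 0.02. Within a history, same-numbered samples of other subpopulations correlated with the CD49f-low samples at 0.069 to 0.204. The replicate block gave 97 rises and 923 genes that differed from basal CD49f-high cells. Leaving out 1 sample gave 89 to 165 parity calls (29 to 62 rises, 58 to 124 falls) and 185 to 755, 41 to 99 and 19 to 56 genes that differed from basal CD49f-high, luminal and stromal cells. Of the 30 largest named changes 19 were called in all 6 such fits and 15 under all of the 14 alternatives that gave them a value (the dim-gene filter left out 4 of 54 called genes followed); no called gene that the text names by rule changed sign. Among genes without a call, array weights turned the sign of Lgr5 (0.023), Wnt4 (0.025), Tnfsf11 (0.064), Esr1 (0.044), Igf1r (-0.027) and Trp63 (0.169). Leaving out 1 sample turned Krt5 (-0.004 to 0.166), Krt14 (-0.065 to 0.005), Wnt4 (-0.121 to 0.023), Tnfsf11 (-0.167 to 0.081), Esr1 (-0.323 to 0.027), Notch1 (-0.127 to 0.198), Jag1 (-0.411 to 0.056), Igf1r (-0.138 to 0.166) and Trp63 (-0.186 to 0.189). The cause of these moves was not tested. With 3 arrays per group, small changes of genes with a wide spread between pools could not be detected.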
